A study of Homo sapiens with 6 samples.

Results

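The 43 genes described here encode proteins of double-strand break repair and of the Fanconi anemia pathway. They were chosen by symbol, and each matched 1 of the 61496 rows of the deposited tables through its Ensembl identifier. The data were 6 RNA sequencing libraries of U251, an established human glioma cell line, grown in DMEM with 10% FBS. Of these, 3 came from untreated cells, the control, and 3 from cells kept under sevoflurane (Sev), a volatile anesthetic, for 2 h. The treatment description lists several Sev concentrations without assigning them to libraries, and 5.1% was taken from the legend of the volcano plot of the same sequencing. All libraries came from the same cell line and no genetic change was made in either group. The study's methods speak of independent experiments for its quantitative data in general without naming the sequencing libraries, so whether those of a group were separate cultures is not stated, and p-values measure the spread between these samples, which may be technical. Library totals ranged from 38624292 to 46318311 counts. In all libraries, 7 of 8 glioma line markers were at 1 FPKM or more. Of the leukocyte markers 0 of 5 were, CD3E was at 0 in all 6 libraries, and their summed FPKM ranged from 0.645 to 0.772 in control and from 1.87 to 2.74 in Sev. That sum was carried by CD14, and its part in any difference below was not tested. Of the epithelial, endothelial and fibroblast markers, 1 of 4, 0 of 3 and 1 of 3 were at 1 FPKM or more in all libraries. The summed FPKM of the fibroblast markers, carried by PDGFRA, ranged from 35.4 to 46.3 in control and from 21.7 to 55.9 in Sev.

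A break across both strands of DNA is recognized by the MRE11-RAD50-NBN complex and by the Ku dimer, and is signalled by the kinases ATM and ATR to the checkpoint kinases CHEK2 and CHEK1. The ends are either ligated directly by non-homologous end joining, which works throughout the cell cycle, or resected and repaired from the sister chromatid by homologous recombination in S and G2 phase. The Fanconi anemia proteins recognize a crosslink between the strands, attach ubiquitin to FANCD2 and FANCI, and hand the resulting break to homologous recombination. Glioma is treated with radiotherapy and alkylating chemotherapy, and both make lesions that these pathways repair.

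Of the 43 genes, 16 were downregulated and 4 were upregulated in Sev-treated U251 cells at an adjusted p under 0.05 (edgeR quasi-likelihood test, Benjamini-Hochberg over 27514 tested features). Over all tested features 21.5% were called lower and 22.1% higher, against 37.2% and 9.3% of these genes, and 43.7% were called either way, against 20 of the 43. Among 15189 tested protein-coding genes the shares were 21.0% lower and 25.0% higher. The genes with the largest decreases were RAD51B, BLM, RAD52, FANCF, FANCM and CHEK2, and those with increases were WRN, CHEK1, XRCC6 and TOPBP1. The median log2 fold change of the 43 genes was −0.31, with quartiles of −0.76 and 0.0081, beside −0.0056 for all tested features and 0.038 for protein-coding genes. Scaling by library size alone moved the median of all features to −0.15 and that of these genes to −0.45, so the gap between them stayed at −0.3, while the count called lower went to 25. The gap was −0.19 without Sev replicate 2 and −0.21 on log2(FPKM + 1). For 23 genes no call was made, with 15 estimates below 0 and 8 above. In bulk samples, less RNA per cell and fewer cells that express a gene cannot be told apart. The control and Sev libraries did not overlap for 20 genes lower in Sev and for 5 higher in Sev, where the shares of all tested features were 28.2% and 28.3%.

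**Figure D1:**
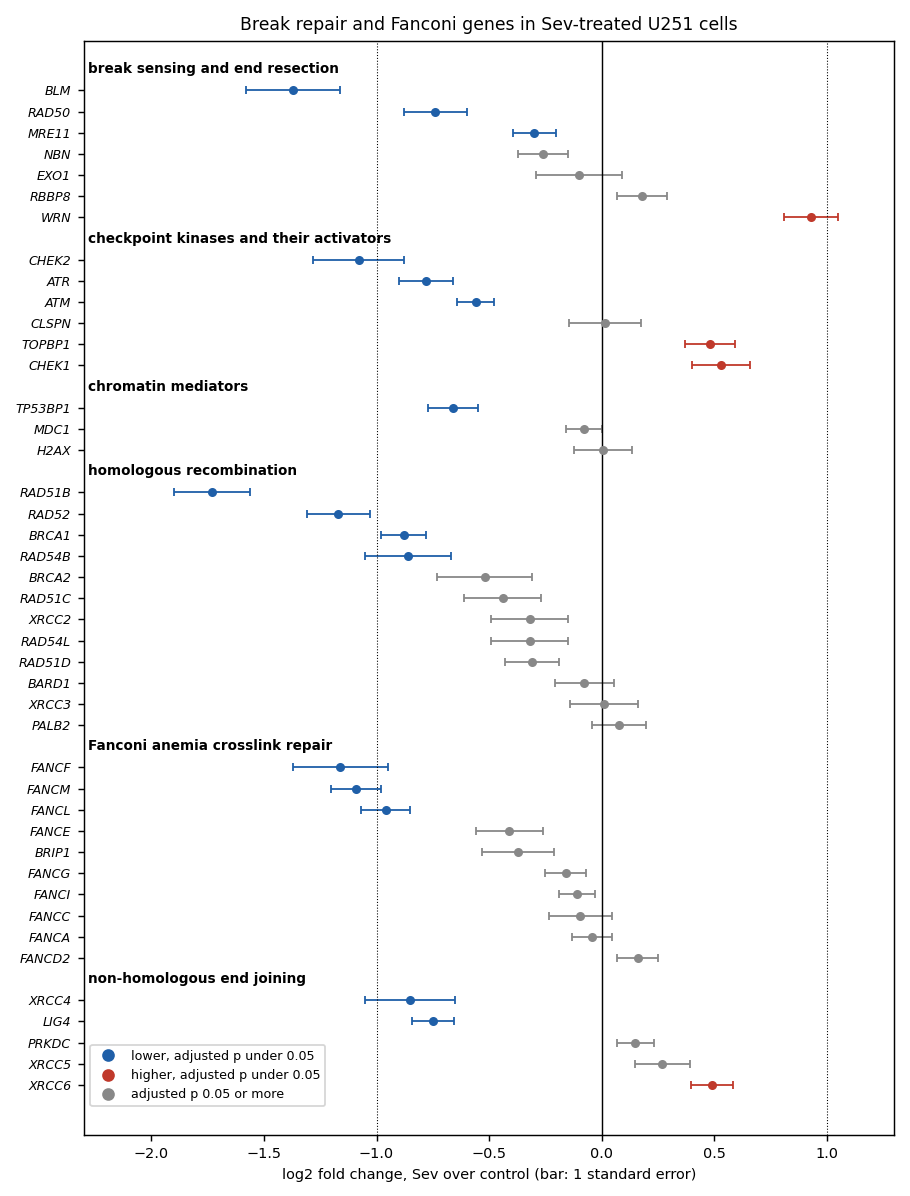
Log2 fold change of Sev over control (x axis) for each of the 43 genes (y axis), grouped by role, from 3 control and 3 Sev libraries, with bars of 1 standard error and dotted lines at −1 and 1. Of the genes, 16 are called lower (blue) and 4 higher (red) at an adjusted p under 0.05, and RAD51B lies lowest at −1.73.

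With the study's threshold, a log2 fold change beyond 1 in either direction with an unadjusted p under 0.05, 6 genes were lower and 0 were higher by edgeR. The shares of all tested features past it were 12.0% lower and 11.4% higher, and those of protein-coding genes were 7.62% and 9.07%. DESeq2 gave the same counts of 6 and 0, limma on log2(FPKM + 1) gave 1 and 0, and 5 genes had an estimate above 0 with an unadjusted p under 0.05 by edgeR. The gene just inside the threshold was CHEK2 at −1.08, and the genes just outside were FANCL at −0.96 and, on the upper side, WRN at 0.93. WRN passed it, at 1.06, without Sev replicate 2.

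Promoters were searched for short motifs of factors that act in the cell cycle. Stretches are shown because no matched window of a gene called lower held the E2F motif. RefSeq promoter windows (GRCh38.p14, 250 bases before to 50 after the annotated start) were matched for 37 of the 43 genes. Those without a window were WRN, called higher, RAD54B, called lower, and FANCI, NBN, PRKDC and XRCC5, without a call. The E2F motif, bound by the factors that switch on S phase genes, was searched as TTTCCCGC, TTTGGCGC, TTTCGCGC or TTTGGCGG on both strands. It was present in 7 of the 37 windows, or 18.9%, beside 3.35% of 35116 promoters. None of the 15 windows of genes called lower held it, while 2 of 3 genes called higher and 5 of 19 without a call did. Each stretch below is 30 bases, read 5′ to 3′ on the strand of the gene, with the motif in capitals.
TOPBP1, chr3:133661930-133661959, minus strand, called higher: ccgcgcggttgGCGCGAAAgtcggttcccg
XRCC6, chr22:41621315-41621344, plus strand, called higher: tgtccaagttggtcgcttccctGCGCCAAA
CLSPN, chr1:35769965-35769994, minus strand, no call: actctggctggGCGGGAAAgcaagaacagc
EXO1, chr1:241848197-241848226, plus strand, no call: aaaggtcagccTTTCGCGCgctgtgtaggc
FANCC, chr9:95317737-95317766, minus strand, no call: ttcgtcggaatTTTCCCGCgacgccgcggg
FANCD2, chr3:10026424-10026453, plus strand, no call: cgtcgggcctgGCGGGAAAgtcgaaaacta
XRCC2, chr7:152676102-152676131, minus strand, no call: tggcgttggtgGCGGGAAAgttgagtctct
Counting to its first base, the motif stood 7 bases before the annotated start in TOPBP1, 2 in FANCD2, 5 in CLSPN and 46 in FANCC. It stood after the start in EXO1 by 4 bases, in XRCC2 by 21 and in XRCC6 by 42. FANCC held a further match 172 bases before its start. A match of letters does not show that a factor binds there, and no match says only that these letters are not in the window. Each gene was searched in a single window, and its other starts were not. The window's start lay 3762 bases from the outermost GENCODE start for RAD51B, 40359 for RAD52, 109087 for FANCC and 135067 for RBBP8. That of BRCA1 lay 82 bases from its outermost start, and other transcripts of BRCA1 start elsewhere.

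The NFY box, CCAAT on either strand, was in 18 of the 37 windows, or 48.6%, beside 34.6% of all promoters. It was in 8 of the 15 windows of genes called lower, in 2 of 3 called higher and in 8 of 19 without a call. The windows of RAD51B and RAD52, whose decreases were also past the study's threshold, held no such box, and that of CHEK2 held it. As given above, those of RAD51B and RAD52 do not lie at the outermost start. The windows of BLM, FANCF and FANCM are shown as examples that hold this box and no E2F motif, as the last 150 bases before each start, with the box in capitals.
BLM, chr15:90717196-90717345, plus strand: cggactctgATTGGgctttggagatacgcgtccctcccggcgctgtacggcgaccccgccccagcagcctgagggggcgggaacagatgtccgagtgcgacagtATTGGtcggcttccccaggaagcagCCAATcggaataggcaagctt
FANCF, chr11:22625824-22625973, minus strand: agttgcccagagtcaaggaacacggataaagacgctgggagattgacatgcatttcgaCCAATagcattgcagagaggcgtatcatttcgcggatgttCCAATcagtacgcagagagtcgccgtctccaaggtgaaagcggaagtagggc
FANCM, chr14:45135780-45135929, plus strand: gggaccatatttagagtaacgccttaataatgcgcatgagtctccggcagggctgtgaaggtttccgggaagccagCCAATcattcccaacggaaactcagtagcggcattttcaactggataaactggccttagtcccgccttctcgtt
The cell cycle homology region (CHR), TTTGAA, which marks many G2/M promoters, was in 5 of 37 windows, or 13.5%, beside 15.2% of all promoters. The ATF4 response element TGATGNAA was in 0 of 37 windows, beside 3.62% of all promoters.

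Among the 7 genes of break sensing and end resection, 3 were called lower, 1 higher and 3 gave no call, beside 21.5% and 22.1% of all tested features lower and higher, with a median log2 fold change of −0.26. The median was −0.05, with 2 genes lower and 2 higher, after correction for exon length and GC content, and −0.40 with library size only. BLM, a helicase that works with DNA2 in long-range resection and unwinds recombination intermediates, showed the largest decrease of the group. Its level was 34.7, 38.4 and 30.8 CPM (counts scaled to a common library size with TMM factors) in control and 14.1, 9.16 and 16.9 CPM in Sev. Every Sev library lay under every control library, with Sev 2 the lowest. BLM thus fell by 61.3%, a log2 fold change of −1.37 ± 0.21 (SE, 3 libraries a group) at an adjusted p of 0.00187. RAD50, the long coiled-coil subunit of the break sensor, was at 47.6, 46.3 and 49.2 CPM in control and 25.4, 35.1 and 25.0 CPM in Sev. Its groups did not overlap, though Sev 2 stood nearer to control than Sev 1 and 3, and the log2 fold change was −0.74 ± 0.14 (adjusted p 0.00423). MRE11, the nuclease of the same complex, was at 30.5, 33.3 and 28.5 CPM in control and 24.9, 24.5 and 25.6 CPM in Sev. The log2 fold change was −0.30 ± 0.095 with an adjusted p of 0.036, and the adjusted p rose past 0.05 in 5 of 6 fits that each left out 1 library, with a range of 0.0482 to 0.106. With the replicate number as a block it was 0.088, and after correction of the libraries for exon length and GC content it was 0.406. NBN, the subunit that docks the complex on chromatin and recruits ATM, had an estimate of −0.26 ± 0.11 (adjusted p 0.096). All 3 subunits of the complex had estimates below 0, and the differences between them were not tested.

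WRN went the other way. WRN is a helicase with its own exonuclease domain, of the same RecQ family as BLM. Its level was 55.2, 57.1 and 54.8 CPM in control and 109, 87.5 and 123 CPM in Sev. The control libraries lay close together and all Sev libraries were above them, a rise of 90.8% and a log2 fold change of 0.93 ± 0.12 (adjusted p 0.000955). The RecQ relatives BLM and WRN therefore moved in opposite directions. EXO1, an exonuclease of long-range resection, was at 27.8, 40.6 and 34.3 CPM in control and 36.2, 24.5 and 35.2 CPM in Sev, with overlapping groups. EXO1 had the highest FPKM of the group in control, at 7.02, and its promoter window holds an E2F motif. RBBP8, also known as CtIP, which starts resection together with MRE11, had an estimate of 0.18 ± 0.11 (adjusted p 0.239).

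Of the 6 checkpoint kinases and activators, 3 were called lower and 2 higher, where 21.5% and 22.1% of all tested features were. The decreases were in ATM, ATR and CHEK2, and the increases in CHEK1 and in TOPBP1, the activator of ATR. ATM, the kinase activated at breaks, was at 131, 134 and 131 CPM in control and 95.9, 90.5 and 82.7 CPM in Sev. It fell by 32.1%, with control libraries that agreed closely and a log2 fold change of −0.56 ± 0.081 (adjusted p 0.00138). ATR, the kinase activated by single-stranded DNA at stalled forks and resected ends, was at 67.2, 70.1 and 75.1 CPM in control and 41.4, 34.9 and 47.5 CPM in Sev. The groups were well apart, and the log2 fold change was −0.78 ± 0.12 (adjusted p 0.00187). CHEK2, the effector kinase downstream of ATM, was the lowest of the group per length, at 1.47 FPKM in control, and was at 9.41, 7.67 and 6.61 CPM in control and 4.25, 3.06 and 3.89 CPM in Sev. Its log2 fold change was −1.08 ± 0.20 (adjusted p 0.00356). CHEK2 has 4 annotated pseudogene copies that took 0.0% of the joint counts, so any read lost to or gained from them cannot be seen in the table.

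CHEK1, the effector kinase downstream of ATR, was at 33.9, 39.9 and 43 CPM in control and 54.2, 50.5 and 63.8 CPM in Sev. All Sev libraries were above all control libraries, with a log2 fold change of 0.53 ± 0.13 (adjusted p 0.0114). On the deposited FPKM values the call was lost, with adjusted p from 0.0539 to 0.0973 by limma. TOPBP1, the scaffold that switches on ATR, was at 81.7, 101 and 90.3 CPM in control and 132, 114 and 134 CPM in Sev. Its log2 fold change was 0.48 ± 0.11 (adjusted p 0.0086), and its promoter holds one of the E2F motifs shown above. On FPKM without a filter on low values the adjusted p of TOPBP1 was 0.0788. CLSPN (claspin), which presents CHEK1 to ATR, ranged from 56.7 to 84.0 CPM in control and from 61.7 to 77.2 CPM in Sev, and the groups overlapped. The highest FPKM of the group was that of TOPBP1, at 10.6 in control and 13.4 in Sev. The effector kinases thus changed in opposite directions, CHEK2 lower and CHEK1 higher.

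**Figure D2:**
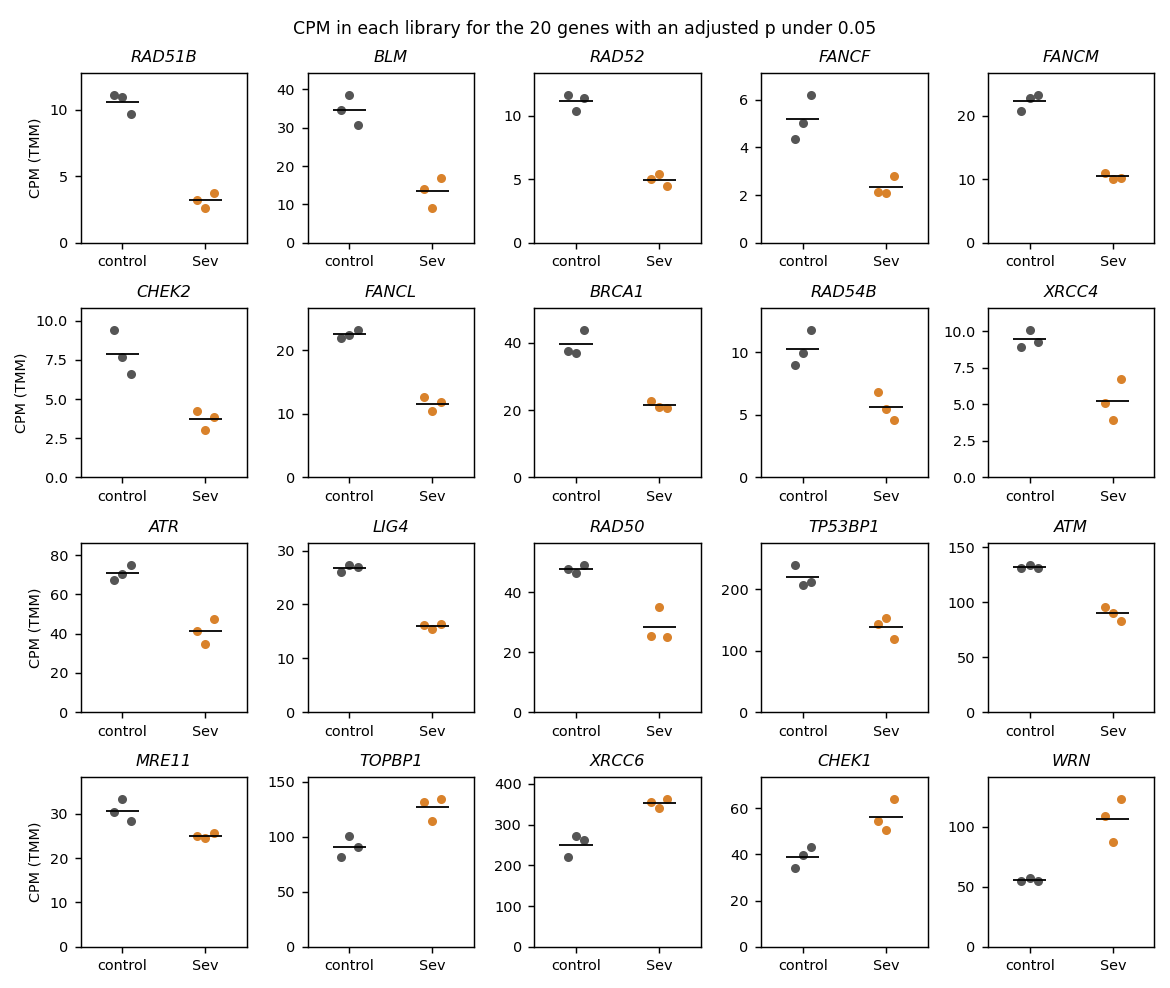
CPM after TMM scaling in each of 3 control (gray) and 3 Sev (orange) libraries for the 20 genes with an adjusted p under 0.05, 1 panel a gene, y axes from 0, with horizontal bars at the group means. In every panel the control and Sev points do not overlap, and MRE11 shows the smallest gap relative to its level.

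The chromatin mediators were 3 genes, of which TP53BP1 was called lower and MDC1 and H2AX gave no call. Over all tested features 21.5% were called lower and 22.1% higher. TP53BP1 (53BP1) protects break ends from resection and favours end joining. Its level was 240, 207 and 211 CPM in control and 144, 153 and 119 CPM in Sev, with no overlap. It fell by 36.7%, a log2 fold change of −0.66 ± 0.11 (adjusted p 0.00275). H2AX, the histone variant whose phosphorylated form marks breaks, had the highest FPKM of all 43 genes, 69.1 in control. Its level was 110, 138 and 147 CPM in control and 128, 117 and 151 CPM in Sev, so the groups overlapped, and the log2 fold change was 0.0059 ± 0.13. The transcript level says nothing about the phosphorylated form of the protein. MDC1, the scaffold that reads phosphorylated H2AX, was at 87.5, 87.7 and 88.7 CPM in control and 76.8, 88.8 and 84.6 CPM in Sev, with a log2 fold change of −0.078 ± 0.081.

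Of the 12 homologous recombination genes, 4 were called lower, 0 higher and 8 gave no call, beside 21.5% and 22.1% of all tested features lower and higher, with a median log2 fold change of −0.38. With library size only, 8 were lower and the median was −0.52. By edgeR, 3 more had an unadjusted p under 0.05, all with estimates below 0, and DESeq2 and limma on FPKM also called 0 of the 12 higher. RAD51B, a subunit of the BCDX2 complex of homologous recombination, showed the largest decrease of all 43 genes. Its level was 11.1, 11.0 and 9.66 CPM in control and 3.21, 2.61 and 3.76 CPM in Sev. The lowest control library was well above the highest Sev library, a fall of 69.8% and a log2 fold change of −1.73 ± 0.17 (adjusted p 0.000324). RAD51B was also the lowest of the 43 genes per length, at 1.18 FPKM in control. It had the longest genomic span of the 43, 910.4 kb at chr14:67819779-68730218 on GRCh38.

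RAD51C, RAD51D, XRCC2 and XRCC3 had estimates nearer to 0 and none was called. RAD51C, a subunit of the same complex, had an estimate of −0.44 ± 0.17 and RAD51D one of −0.31 ± 0.12, with adjusted p of 0.0659 and 0.0625. Leaving out control replicate 2 gave 0.046 for RAD51C, and leaving out Sev replicate 3 gave 0.0408 for RAD51D. Scaling by library size only gave 0.0376 for RAD51C and 0.0259 for RAD51D, and limma on FPKM gave 0.04 and 0.0419 for RAD51D with pseudocounts of 1 and 0.1. XRCC2, which binds RAD51D, had −0.32 ± 0.17 with overlapping groups (adjusted p 0.167, and 0.0354 without control replicate 2). XRCC3, which also binds RAD51C, had 0.01 ± 0.15. The opposite-strand gene KLC1 overlaps XRCC3 and held 9690 counts on average against 1420 for XRCC3. How the counting treated strand is not given in the sources used here, so reads of KLC1 in the count of XRCC3 cannot be told apart. Among these genes the call was thus made for RAD51B, and the difference between its change and those of the others was not tested.

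RAD52, which anneals single strands, was at 11.6, 10.4 and 11.4 CPM in control and 4.99, 5.38 and 4.44 CPM in Sev. Both groups were tight, and the log2 fold change was −1.17 ± 0.14 (adjusted p 0.000574). BRCA1, the ubiquitin ligase that directs breaks to resection and recombination, was at 37.6, 37.1 and 43.8 CPM in control and 22.7, 20.9 and 20.7 CPM in Sev. It fell by 45.6%, a log2 fold change of −0.88 ± 0.10 (adjusted p 0.000576). BARD1, the obligate partner of BRCA1, was at 57.6, 54.6 and 50.0 CPM in control and 51.6, 42.9 and 59.2 CPM in Sev. Its groups overlapped and its log2 fold change was −0.077 ± 0.13. BRCA2, a mediator of homologous recombination, was at 37.8, 45.3 and 41.6 CPM in control and 27.2, 21.0 and 38.7 CPM in Sev. Sev 3 reached into the control range, and the estimate of −0.52 ± 0.21 had an adjusted p of 0.0743. Without Sev replicate 3 the estimate was −0.78 and the adjusted p 0.00819. PALB2, the bridge between BRCA1 and BRCA2, had an estimate of 0.079 ± 0.12 and overlapping groups.

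RAD54B, a translocase that remodels recombination intermediates, was at 8.96, 9.97 and 11.8 CPM in control and 6.82, 5.51 and 4.62 CPM in Sev. The groups did not overlap, with a log2 fold change of −0.86 ± 0.19 (adjusted p 0.00765). Its relative RAD54L had the highest FPKM of the recombination genes in control, at 8.38. RAD54L was at 29.8, 48.1 and 43 CPM in control and 32.0, 33.6 and 31.0 CPM in Sev. The spread of the control libraries, 23.5% of the mean, was the widest of the 43 genes in that group, and the estimate of −0.32 ± 0.17 was not called (adjusted p 0.154). Without control replicate 1 it was −0.51 with an adjusted p of 0.0112. The opposite-strand gene LRRC41 overlaps RAD54L and held 4160 counts on average against 1490.

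Of the 10 Fanconi anemia genes, 3 were called lower and 7 gave no call, beside 21.5% of all tested features called lower. The count lower was 7 with library size only, 5 to 6 on FPKM and 5 after correction for exon length and GC content. The decreases were in FANCF, FANCM and FANCL. FANCM, the translocase that brings the core complex to the crosslink, was at 20.7, 22.8 and 23.2 CPM in control and 11.0, 10.1 and 10.2 CPM in Sev. It fell by 53% with little spread in either group, a log2 fold change of −1.09 ± 0.11 (adjusted p 0.000311). FANCL, the catalytic ubiquitin ligase subunit of the core complex, was at 22.0, 22.4 and 23.2 CPM in control and 12.6, 10.5 and 11.8 CPM in Sev. The log2 fold change was −0.96 ± 0.11 (adjusted p 0.000568), just short of the limit of −1. FANCF, the adaptor of the core complex, was at 4.35, 5.02 and 6.18 CPM in control and 2.12, 2.08 and 2.78 CPM in Sev. Its counts included the smallest of any of the 43 genes in a library, 78, and the log2 fold change was −1.16 ± 0.21 (adjusted p 0.0033).

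The other core complex subunits were not called, and differences between subunits were not tested. FANCE had an estimate of −0.41 ± 0.15 with groups that did not overlap and an adjusted p of 0.0573, which was 0.0239 without Sev replicate 2. FANCE was called lower by the Wald test of DESeq2 (adjusted p 0.0477), on FPKM by limma (0.0117 to 0.0232) and, at −0.65, after correction for exon length and GC content (0.00829). FANCG had −0.16 ± 0.092, FANCC −0.095 ± 0.14 and FANCA −0.041 ± 0.089, all with overlapping groups. FANCG was called lower on FPKM (adjusted p 0.025 to 0.0366 by limma) and, at −0.38, after the correction for exon length and GC content (0.0147). On FPKM the median of all tested features was −0.11 and −0.17 with pseudocounts of 1 and 0.1, and −0.0089 without the filter. FANCI and FANCD2 are the pair that the core complex modifies with ubiquitin. FANCI had the highest FPKM of the Fanconi genes, 24.2 in control, and was at 206, 228 and 226 CPM in control and 212, 193 and 209 CPM in Sev. FANCD2 was at 119, 129 and 122 CPM in control and 140, 124 and 151 CPM in Sev. Both pairs of groups overlapped, with log2 fold changes of −0.11 ± 0.079 and 0.16 ± 0.092. FANCI was called lower at −0.25 with library size only (adjusted p 0.0386), at −0.24 and −0.25 on FPKM with pseudocounts of 1 and 0.1 (0.0364 and 0.0374), and at −0.29 with the trend on level removed (0.0183). BRIP1, the helicase that binds BRCA1, had an estimate of −0.37 ± 0.16 and an adjusted p of 0.102.

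Of the 5 non-homologous end joining genes, 2 were called lower and 1 higher, where 21.5% and 22.1% of all tested features were. XRCC4 and LIG4, which form the ligase complex, were lower, and XRCC6, the Ku70 subunit of the end-binding dimer, was higher. LIG4, the DNA ligase, was at 26.0, 27.4 and 27.0 CPM in control and 16.2, 15.4 and 16.4 CPM in Sev. The replicates lay close together in both groups, and the fall of 40.4% gave a log2 fold change of −0.75 ± 0.093 (adjusted p 0.000728). XRCC4, the scaffold of LIG4, was at 8.96, 10.1 and 9.29 CPM in control and 5.10, 3.91 and 6.71 CPM in Sev. Its log2 fold change was −0.85 ± 0.20 (adjusted p 0.0116), and the range of adjusted p over fits that left out 1 library was 0.00485 to 0.0436. TMEM167A and COQ10BP2, on the opposite strand, overlap XRCC4 and together held 3250 counts on average against 306. TMEM167A itself had a log2 fold change of 0.017 ± 0.096.

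XRCC6 was at 221, 271 and 261 CPM in control and 355, 340 and 362 CPM in Sev. It rose by 40.4%, a log2 fold change of 0.49 ± 0.094 (adjusted p 0.00466), and it had the highest FPKM of the end joining genes, 65.0 in control and 82.8 in Sev. XRCC5, the Ku80 subunit, was at 316, 408 and 312 CPM in control and 430, 399 and 424 CPM in Sev. Control 2 reached into the Sev range, and the estimate of 0.27 ± 0.12 had an adjusted p of 0.0903. Without control replicate 2 it was 0.40 with an adjusted p of 0.011. PRKDC, the catalytic subunit of the DNA-dependent kinase that Ku recruits, was at 953, 1090 and 1040 CPM in control and 1140, 1140 and 1150 CPM in Sev. All its Sev libraries were above all control libraries, with a log2 fold change of 0.15 ± 0.083 (adjusted p 0.172) that turned to −0.11 with the trend on level removed. Both Ku subunits had estimates above 0, and both ligation subunits were called lower.

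**Figure D3:**
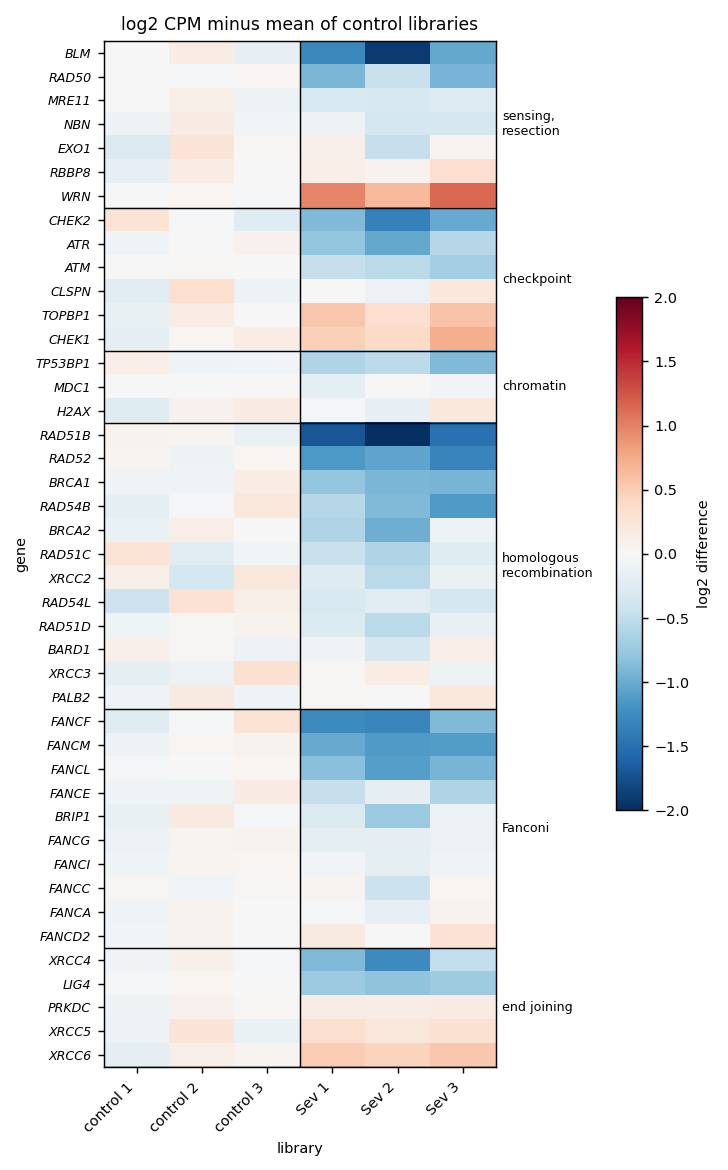
Log2 CPM of each of the 43 genes (y axis, grouped by role) in each of the 6 libraries (x axis) minus the mean of the 3 control libraries, with blue below and red above that mean on a scale from −2 to 2. The strongest blue is RAD51B in Sev 2, and 8 rows are red in all 3 Sev libraries, those of the genes called higher, WRN, CHEK1, TOPBP1 and XRCC6, and of RBBP8, FANCD2, PRKDC and XRCC5, which were not called.

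Libraries of 1 group differed among themselves in a shared way. Sev 2 held the lowest Sev value for 32 of the 43 genes and Sev 3 the highest for 25. In control, control 1 held the lowest value for 28 genes and control 2 the highest for 21. The median coefficient of variation of the genes was 8.97% in control and 11.7% in Sev, and BRCA2 in Sev was the most variable at 31.1%. The summed level of the 43 genes was 3544, 3989 and 3789 CPM in control and 3847, 3641 and 3945 CPM in Sev, so the sums overlapped. PRKDC, XRCC5 and XRCC6, none of which was called lower, held 43.1% of the sum in control and 50.1% in Sev. Without Sev replicate 2 the median log2 fold change was −0.21, and over all 6 fits that left out 1 library it ranged from −0.33 to −0.21. Of the 20 called genes, 19 kept their call in all 6 of those fits and MRE11 did not.

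Most decreases lay among the genes with fewer reads. Of the 7 genes with a mean of 4 to 16 CPM, 5 were called lower, and of the 7 with 16 to 32 CPM, 6 were. FANCF, the only one under 4 CPM, was lower as well. In the same ranges 31.0%, 25.0% and 22.1% of protein-coding genes were called lower. Of the 15 genes with 32 to 64 CPM, 2 were called lower, RAD50 and ATR, and 1 higher, CHEK1. In that range 20.3% of protein-coding genes were called lower and 25.8% higher. Of the 13 genes above 64 CPM, ATM and TP53BP1 were lower, and WRN, TOPBP1 and XRCC6 were higher. At 64 to 128, 128 to 256 and 256 to 2000 CPM, 17.2%, 10.6% and 6.64% of protein-coding genes were called lower. In the same order, 34.4%, 41.3% and 43.9% of them were called higher. The median log2 fold change of protein-coding genes also rose with level, from −0.18 at 4 to 16 CPM to 0.25 at 256 to 2000 CPM. At 1 to 4 CPM it was −0.012. Over the 43 genes, Spearman's correlation between mean CPM and log2 fold change was 0.69, while over 15189 protein-coding genes it was 0.06. These points share the same 6 libraries, and the fold change is estimated from the counts that set the level. With each library's trend on level removed, all 20 calls were kept and the median was −0.28.

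**Figure D4:**
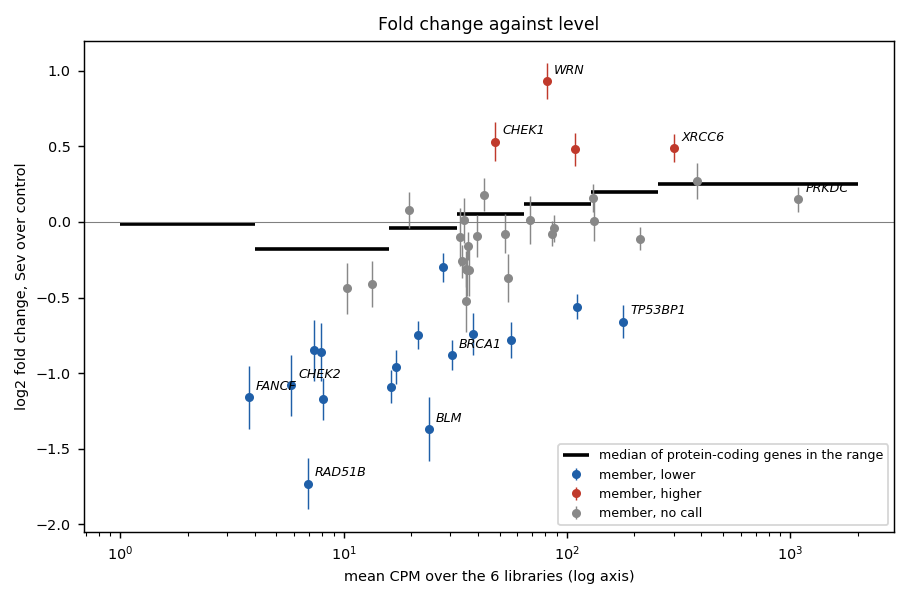
Log2 fold change of Sev over control (y axis, bars of 1 standard error) against mean CPM over the 6 libraries (x axis, log scale) for the 43 genes, with black lines at the median of protein-coding genes in each range. Blue points (lower) lie mostly to the left, and the 4 red points (higher) lie above 32 CPM.

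Many of these genes have an annotated start near that of a neighbour on the opposite strand. An opposite-strand start within 1000 bases upstream was annotated (GENCODE 29, outermost start of each gene) for 16 of the 43 genes, or 37.2%, and for 15.7% of tested protein-coding genes. A further arrangement, in which the opposite start lies up to 1000 bases inside the gene, held for 8, or 18.6%, and for 12.7%. Of 11 decreased genes with a tested neighbour, 3 had a neighbour called lower, or 27.3%, beside 21.0% of protein-coding genes, and 1 had a neighbour called higher. NBR1, an autophagy receptor whose start is 236 bases from that of BRCA1, fell from 167 ± 9.32 to 111 ± 15.6 CPM (SD, n = 3), and its log2 fold change was −0.59 ± 0.11 (adjusted p 0.00434). The start of BRCA1 used here is the outermost one, and its other transcripts start closer to NBR2, which overlaps it on the opposite strand. ERC1, next to the outermost start of RAD52, had −0.54 ± 0.11 (adjusted p 0.00681). The RefSeq start of RAD52, whose window was searched for motifs above, lies 40359 bases from that outermost start, so ERC1 is not a neighbour of that window. HSCB, an iron-sulfur cluster co-chaperone whose start overlaps that of CHEK2, had −0.84 ± 0.20 (adjusted p 0.0108).

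In the pairs that follow, the neighbour was called and the repair gene was not called in the same direction, and the difference within a pair was not tested. PURG starts 86 bases from WRN and fell from 3.04 ± 0.404 to 1.31 ± 0.192 CPM while WRN rose, for a log2 fold change of −1.21 ± 0.21 (adjusted p 0.0028). ABHD13 starts 11 bases from LIG4 and had 0.40 ± 0.12 (adjusted p 0.0269), a call that held in 2 of 6 fits without 1 library and was lost with library size only, without a count filter, with the replicate block and on FPKM. INHCAP, a transcribed pseudogene that overlaps the start of TOPBP1, had −1.40 ± 0.40 (adjusted p 0.0233) from 0.764 ± 0.0972 CPM, and its call held in 4 of those 6 fits. TEX14, a gene of intercellular bridges in germ cells, starts 518 bases from RAD51C and rose from 1.67 ± 0.141 to 20.2 ± 2.01 CPM, a 12.1-fold change with an adjusted p of 1.8e-05. RAD51C itself was not called. FNDC8, 57 bases from the outermost start of RAD51D and farther from its RefSeq start, which lies 1764 bases away, rose from 0.366 ± 0.113 to 1.14 ± 0.367 CPM (adjusted p 0.00855). MCM4, a subunit of the replicative helicase that starts 2 bases from PRKDC, had 0.53 ± 0.16 (adjusted p 0.027), and CIDECP1, next to FANCD2, had 0.44 ± 0.11 (adjusted p 0.0168). These calls held in 2 and 3 of the 6 fits without 1 library. Both were lost with library size only (adjusted p 0.0517 for MCM4 and 0.106 for CIDECP1) and on FPKM, and that of MCM4 also without a count filter and with the trend on level removed.

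The remaining tested neighbours were not called by edgeR. They were MAP1A (0.012), DESI1 (−0.18), FKBP3 (−0.33), CRTC3-AS1 (−0.46), ZFYVE21 (−0.049), DCTN5 (0.32), SNHG31 (−0.54), NPAT (−0.29), ANKRD49 (−0.24), GAS2 (−1.09) and TMEM167A (0.017), with log2 fold changes in parentheses. In other settings DESI1 was called lower with library size only (adjusted p 0.034), on FPKM (0.0321 to 0.0442) and after correction for exon length and GC content (0.045). SNHG31 was called lower with library size only (0.0463) and on log2(FPKM + 1) (0.0444), and DCTN5 higher without Sev replicate 2 (0.0174). ZAR1L, IGBP1C, IL5 and the antisense gene at FANCL had too few counts to test. The difference within a pair was not tested.

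**Figure D5:**
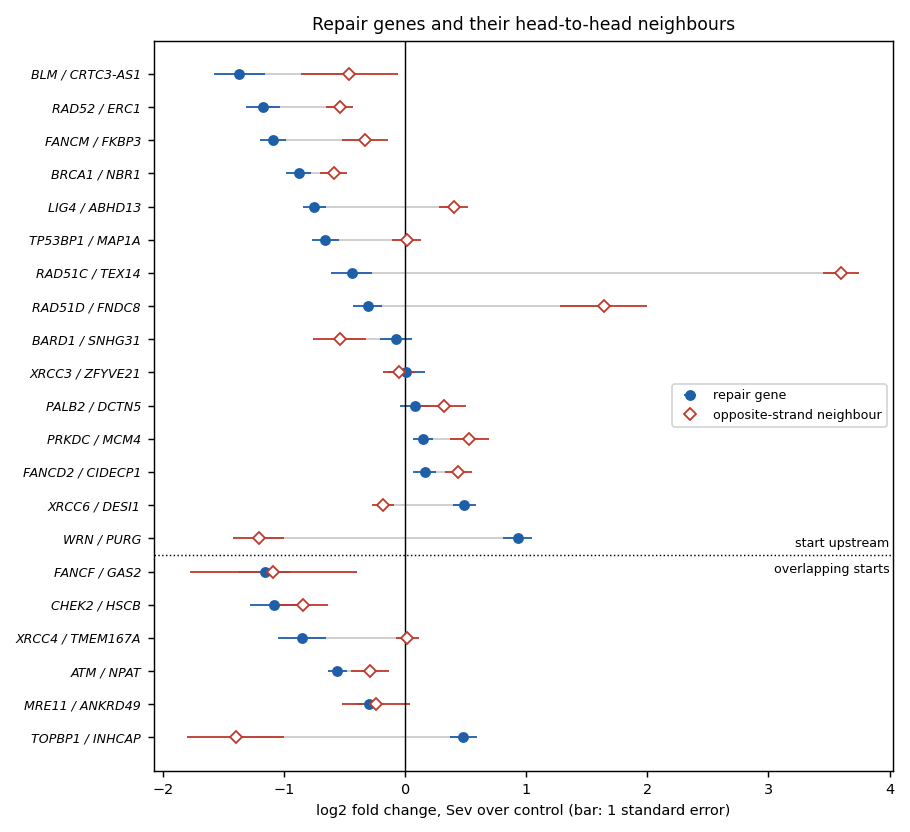
Log2 fold change of Sev over control (x axis, bars of 1 standard error, 3 libraries a group) for the repair genes (blue circles) and their tested opposite-strand neighbours (red diamonds), 1 pair a line, with overlapping starts below the dotted line. TEX14 stands farthest right at 3.60 while RAD51C lies at −0.44, and WRN and PURG lie on opposite sides of 0.

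Other genes of the same pathways were called in both directions. Of 61 further break repair genes, all tested, 14 were called lower and 8 higher, or 23.0% and 13.1%, beside 21.5% and 22.1% of all tested features, with a median log2 fold change of −0.20. With library size only, 23 were lower and 5 higher, and on log2(FPKM + 1) 22 were lower and 5 higher. In fits that left out 1 library, 11 to 15 were lower and 5 to 12 higher. The 3 with the smallest p among those lower were EME1, SLX4 and FAN1, nucleases or nuclease scaffolds of crosslink and junction processing. EME1 fell from 14.1 ± 0.364 to 6.95 ± 0.524 CPM (SD, n = 3), and its log2 fold change was −1.02 ± 0.12 (adjusted p 0.000591). FAN1 had −0.69 ± 0.083 (adjusted p 0.000633) and SLX4 −0.63 ± 0.084 (adjusted p 0.000937). Among those higher, WEE1, the kinase that holds CDK1 inactive, went from 282 ± 20.3 to 454 ± 44.2 CPM and rose by 0.69 ± 0.099 on the log2 scale (adjusted p 0.00136). UIMC1 (RAP80), which brings BRCA1 to ubiquitin chains, had 0.51 ± 0.088 (adjusted p 0.00291), and MAD2L2 of the shieldin complex had 0.46 ± 0.085 (adjusted p 0.0041). After correction for exon length and GC content MAD2L2 had 0.18 and was not called (adjusted p 0.139). RMI1 and RMI2, which form a complex with BLM, were named after their values were seen. RMI2 had −1.46 ± 0.19 (adjusted p 0.000949) and RMI1 −1.24 ± 0.22 (adjusted p 0.00301). With EME1 they were the 3 genes of the list past the study's threshold.

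Genes of the cell cycle phases give the setting in which many repair genes are transcribed. Of 31 S phase genes, 16 were called higher and 1 lower, beside 22.1% and 21.5% of all tested features, with a median log2 fold change of 0.38. With library size only 10 were higher and 3 lower. In fits that left out 1 library 10 to 19 were higher, and on FPKM without a filter 7 were. Of 30 G2/M genes, 12 were called lower and 1 higher, beside 21.5% and 22.1%, with a median of −0.25. The E2F motif was in 17 of 25 matched S phase promoters and in 3 of 25 G2/M promoters, and CHR was in 1 and 16 of them. Among the break repair genes outside the 43, the E2F motif was in 3 of 53. The part of cell cycle phase in the changes of the repair genes was not tested.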

How the data were processed

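Total RNA of U251 cells, 3 control and 3 Sev libraries, was depleted of ribosomal RNA and sequenced strand-specifically in paired ends. The authors deposited raw counts per gene and FPKM values, which scale counts by gene length and library size. The submitters' processing notes name bcl2fastq 2.19, featureCounts and the build hg18, but the identifiers belong to a later Ensembl release and 932 are of assembled loci, so the build of the counting is unclear. The aligner and the strand setting are not given in the sources used here. Positions and gene types came from GENCODE 29 (GRCh38), and promoters from RefSeq (GRCh38.p14).

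The count table was tested with edgeR 4.0.16 in R 4.3.3 (filterByExpr, TMM, glmQLFit and glmQLFTest, 2 groups, no covariate) on the whole table, with Benjamini-Hochberg adjustment over 27514 features and a limit of 0.05. Standard errors are the absolute log2 fold change over the square root of the F statistic. CPM values hold no prior count. Totals per library were 38624292 to 46318311 counts. An exact permutation test of 3 against 3 cannot go under 0.1. Replicate pairs differed beyond sampling noise in 51.8% to 69.3% of 13668 features.

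The genes, role groups and other lists were chosen from general knowledge with earlier results of these data known. Values in every library are given for the genes with an adjusted p under 0.05 and for the gene of highest FPKM in each role group. By the same rule, the 3 other break repair genes of smallest p in each direction and the opposite-strand neighbours are named. Library values of MDC1, BARD1, BRCA2, FANCD2, XRCC5 and PRKDC, and the names RMI1 and RMI2, were added after the values were seen. The alternatives were DESeq2 1.42.0 (size factors, or its Wald test), library size only, no filter on low counts, a minimum of 10 counts in all libraries, the replicate block, each library left out, and limma 3.58.1 on log2(FPKM + 1) or log2(FPKM + 0.1). The limma fits kept features at 0.5 FPKM or more in 3 libraries, or all. Removal of library trends on level or on exon length and GC content, the background of protein-coding genes and the neighbours with overlapping starts were added after the data were seen. Scripts were tested on simulated data.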

Additional observations from a re-analysis of the deposited data

How the results depend on the processing

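All 20 calls among the 43 genes kept their direction under every alternative run. The calls lost were MRE11 (without a filter on low counts, with the replicate block, after correction for exon length and GC content, and in 5 of 6 fits without 1 library), CHEK1 (on FPKM in all 3 fits) and TOPBP1 (on FPKM without a filter). With library size only, 25 genes were lower with a median of −0.45, the added ones being BRCA2, RAD51C, RAD51D, RAD54L, BRIP1, FANCE, FANCG, FANCI and NBN (8 of 12 homologous recombination and 7 of 10 Fanconi genes were then lower); among other break repair genes 5 were higher and 23 lower (median −0.34), among S phase genes 10 higher and 3 lower, and the G2/M median was −0.39. On log2(FPKM + 1), 1 of the 43 genes was lower past the study's threshold, since the pseudocount shrinks changes of genes at a few FPKM; 5 other repair genes were higher and 22 lower, 10 S phase genes higher and 3 lower, and 0 G2/M genes higher (median −0.37). On log2(FPKM + 0.1) the median of the 43 genes was −0.43, with 5 other repair genes higher and 22 lower (median −0.33), 10 S phase genes higher and 3 lower, and 0 G2/M genes higher (median −0.39). Without the FPKM filter, 2 of the 43 genes were called higher, 1 was lower past the threshold, and 4 other repair genes and 7 S phase genes were higher, 2 S phase genes lower and 0 G2/M genes higher (median −0.37). Without the trend on level, 10 S phase genes were higher and 2 lower, and the G2/M median was −0.36; with the correction for exon length and GC content, 1 of the 43 genes, WRN, was higher past the threshold at 1.10, and 9 S phase genes were higher. Calls were also gained by BRCA2 and FANCE with the Wald test, by FANCE, FANCG and NBN in all 3 FPKM fits, by RAD51D and FANCI in 2 of these and BRCA2 in 1, by FANCI without the trend on level, and by FANCE and FANCG (lower) and RBBP8 (higher) with the correction for exon length and GC content. Leaving out 1 library gave 0 to 1 of the 43 genes higher past the threshold, 5 to 12 other repair genes higher (median −0.27 to −0.15), 10 to 19 S phase genes higher and 1 to 2 lower, and 0 to 1 G2/M genes higher; the S phase count of 10 came without Sev replicate 1 and without control replicate 1. The median of all tested features was −0.15 with library size only, −0.11 on log2(FPKM + 1) and −0.17 on log2(FPKM + 0.1). On log2(FPKM + 1) without the filter it was −0.0089. Other causes were not tested.

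Genes without a call turned sign near 0. The log2 fold changes of library size only, log2(FPKM + 1) (equal with and without its filter) and log2(FPKM + 0.1) were −0.058, −0.047 and −0.06 for PALB2, −0.13, −0.10 and −0.12 for XRCC3, −0.12, −0.10 and −0.11 for CLSPN, −0.13, −0.13 and −0.14 for H2AX, −0.13, −0.079 and −0.13 for MAP1A, and −0.12, −0.12 and −0.13 for TMEM167A. Without a count filter XRCC3 had −0.0034, H2AX −0.0077 and MAP1A −0.00035. Without the trend on level, CLSPN had −0.069, H2AX −0.14, PRKDC −0.11, TMEM167A −0.087 and ZFYVE21 0.047. With the correction for exon length and GC content, XRCC3 had −0.21, H2AX −0.30, BARD1 0.11 and MAP1A −0.11. Leaving out 1 library gave ranges of −0.088 to 0.17 for XRCC3, −0.19 to 0.041 for BARD1, −0.10 to 0.022 for FANCA, −0.18 to 0.054 for FANCC, −0.24 to 0.064 for EXO1, −0.11 to 0.19 for CLSPN, −0.12 to 0.09 for H2AX, −0.48 to 0.087 for ANKRD49, −0.084 to 0.086 for MAP1A, −0.047 to 0.085 for TMEM167A and −0.18 to 0.028 for ZFYVE21.

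Same-numbered control and Sev libraries did not deviate together (correlations of −0.0072, 0.0035 and 0.027 over 27514 features). These correlations cannot show whether libraries of the same number were handled together. With the replicate number as a block, 37.3% of features were called, and among the genes named here MRE11 and ABHD13 lost their call and no other call changed. The smallest count of the 43 genes in a library was 78, for FANCF, and the parts of counting error and replicate spread were not separated.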
